A study of Mus musculus with 6 samples.

Results

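Fibroblasts that carried transcripts of the proliferation genes Mki67 and Top2a were examined in stromal vascular cells of mouse inguinal white adipose tissue (iWAT). The members were defined by a rule on unique molecular identifiers (UMIs, counted mRNA molecules). A barcode needed at least 2000 UMIs, under 10% of them mitochondrial, at least 30 Dcn UMIs per 10,000, no UMI of Pecam1, Cdh5 or Ptprc, and at least 2 UMIs of Mki67 and Top2a together. Of 68103 barcodes, 46975 met the fibroblast conditions and 64 of those also met the Mki67 and Top2a condition. This was 0.136% of fibroblasts (95% exact binomial interval 0.105 to 0.174). The other 46911 fibroblasts were the comparison. Intervals and limits of this kind cover counting error only. The 64 are called Mki67/Top2a fibroblasts below, since most of them did not carry a wider cell cycle programme.

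Male C57BL/6 mice were young (9 weeks) or aged (57 weeks) and were first held at 30 °C for 3 weeks. They then stayed at 30 °C (thermoneutral, TN), or were moved to 6 °C for the last 3 days (3D cold) or for 14 days (14D cold). Each of the 6 combinations gave 1 library of live cells depleted of CD45+ cells, prepared with 10x Genomics 3′ chemistry, so the library is the replicate and no combination has a second one. The study's methods say that cells of different mice were kept apart except where stated, and state no pooling and no number of mice for these libraries. The mice were of the C57BL/6JN substrain (National Institute of Aging) or of C57BL/6J (Jackson Laboratories), and which library came from which source is not given in the sources used here. No transgene was named for these libraries. Library totals ran from 52068837 UMIs (aged 14D cold) to 88508349 (young TN). The median fibroblast of the young libraries held 10143, 8377 and 7769 UMIs in TN, 3D cold and 14D cold, against 7198, 7041.5 and 6741 in the aged libraries. Of 67565 distinct barcode sequences, 524 (0.776%) occurred in more than 1 library, including those of 2 members.

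As background, a cell that divides copies its DNA in S phase and separates the copies in mitosis, after a gap called G2. E2F factors drive the genes of S phase, such as the MCM helicase that opens the DNA and the enzymes that make nucleotides. The genes of G2 and mitosis, which build the spindle and destroy the cyclins, are switched on later by MuvB complexes with B-MYB and FOXM1. Mki67 encodes Ki-67, which coats mitotic chromosomes, and Top2a encodes topoisomerase IIα, which untangles the copied DNA. Fibroblasts of adipose tissue include the progenitors of adipocytes. In iWAT these are commonly divided into Dpp4+ cells of the interstitium, Icam1+ preadipocytes and Cd142+ (F3) cells.

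The promoters of both rule genes and of Cdk1 and Mcm5 are shown because the genes of the 2 phases carry different short motifs. Sequences are RefSeq's for GRCm38.p6, 300 bases around the start of the gene, 5′ to 3′ on the strand of the gene. Capitals mark CCAAT, the CHR motif (TTTGAA or TTCGAA) and the E2F motif (TTTCGCGC, TTTGGCGC or TTTCCCGC), searched on both strands.
Top2a (chr11:99024140-99024439, minus strand): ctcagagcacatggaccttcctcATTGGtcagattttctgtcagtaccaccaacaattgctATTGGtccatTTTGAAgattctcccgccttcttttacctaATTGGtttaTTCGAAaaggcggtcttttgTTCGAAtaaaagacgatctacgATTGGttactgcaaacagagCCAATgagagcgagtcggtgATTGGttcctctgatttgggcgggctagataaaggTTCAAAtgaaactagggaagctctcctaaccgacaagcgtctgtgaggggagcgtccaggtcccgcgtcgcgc
Mki67 (chr7:135716330-135716629, minus strand): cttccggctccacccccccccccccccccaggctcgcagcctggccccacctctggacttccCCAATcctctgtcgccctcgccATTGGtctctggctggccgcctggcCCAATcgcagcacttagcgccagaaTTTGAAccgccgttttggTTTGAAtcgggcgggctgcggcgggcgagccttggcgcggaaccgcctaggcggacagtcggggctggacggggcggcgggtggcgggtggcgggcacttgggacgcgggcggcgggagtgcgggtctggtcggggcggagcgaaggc
Cdk1 (chr10:69352863-69353162, minus strand): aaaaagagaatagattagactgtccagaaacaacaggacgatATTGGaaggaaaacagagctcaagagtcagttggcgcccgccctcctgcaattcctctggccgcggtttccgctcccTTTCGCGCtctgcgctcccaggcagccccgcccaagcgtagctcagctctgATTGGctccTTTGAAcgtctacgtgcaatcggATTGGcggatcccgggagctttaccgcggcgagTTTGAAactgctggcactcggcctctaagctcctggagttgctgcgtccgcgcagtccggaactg
Mcm5 (chr8:75109259-75109558, plus strand): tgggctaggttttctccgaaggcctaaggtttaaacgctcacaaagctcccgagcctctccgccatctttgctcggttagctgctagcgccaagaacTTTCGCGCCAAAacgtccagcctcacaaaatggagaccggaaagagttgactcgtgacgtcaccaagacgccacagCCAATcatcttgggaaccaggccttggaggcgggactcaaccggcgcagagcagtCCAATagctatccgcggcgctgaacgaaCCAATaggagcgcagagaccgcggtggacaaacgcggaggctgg

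The Top2a window held 6 CCAAT and 4 CHR matches, and the Mki67 window 3 and 2. Cdk1, the kinase of mitotic entry, had 3 CCAAT, 2 CHR and 1 E2F match. Mcm5, a subunit of the helicase, had 3 CCAAT matches, no CHR match and 2 E2F matches that overlap, TTTCGCGC on one strand and TTTGGCGC on the other. Of 45 genes matched from the G2/M list used below, 34 (75.6%) held a CHR match, against 6 of 31 (19.4%) of the S list and 21.7% of all 27025 genes. An E2F match was found for 12 of 31 S genes (38.7%), 3 of 45 G2/M genes (6.67%) and 2.12% of all genes. CCAAT was found for 71.0% of S genes, 75.6% of G2/M genes and 41.1% of all genes. Among single windows, 37.4% held CCAAT, 19.2% CHR and 1.84% E2F. A match is a description of letters, not of binding.

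The Mki67 and Top2a count separated 2 kinds of member. Exactly 2 UMIs were found in 42 barcodes, 3 or 4 UMIs in 4, and 5 or more in 18, which held 5 to 93. The 18 barcodes held 636 of the 733 Mki67 and Top2a UMIs of all members (86.8%), and each of them had both genes. Among the 42, 28 had Top2a alone, 7 Mki67 alone and 7 one UMI of each. Just below the threshold, 347 fibroblasts carried 1 UMI, 229 in the young and 118 in the aged libraries. The 22 barcodes with 3 or more UMIs came from young mice: 8 from TN, 4 from 3D cold and 10 from 14D cold. The 15 members of the aged libraries all had exactly 2.

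Lists of S phase genes (43) and G2/M genes (51), which hold neither Mki67 nor Top2a, measured the wider programme. In fibroblasts with no Mki67 or Top2a UMI, the G2/M list made up a median of 11.5 UMIs per 10,000, with the 95th percentile at 21.2. The median was 11.9 with 1 UMI, 11.8 with exactly 2 and 10.4 with 3 or 4. With 5 or more it was 111, with a lowest barcode of 72.5 and a highest of 255, so each of the 18 lay above that percentile. The S list had medians of 4.39, 4.56, 4.93, 3.60 and 27.8 per 10,000 in the same 5 classes, and the 18 ranged from 5.07 to 66.9. Thinned to 2000 UMIs each, all 18 held 15 or more UMIs of both lists together, and 0 of the 46 members with 2 to 4 did. A few of those 46 still stood out before thinning. A young TN barcode had 46 S and 27 G2/M UMIs, or 35.0 and 20.5 per 10,000. A young 3D cold barcode, with 25730 UMIs and a high doublet score, had 41 and 62, or 15.9 and 24.1 per 10,000.

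**Figure D1:**
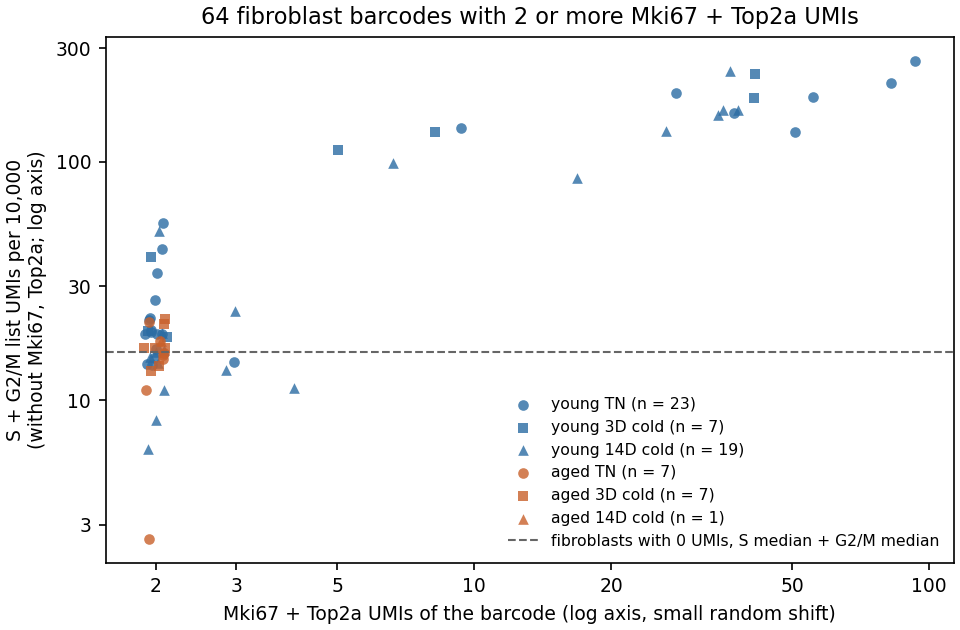
Each point is 1 of the 64 members, with its Mki67 and Top2a UMIs on the horizontal log axis and its S and G2/M list UMIs per 10,000 on the vertical log axis, coloured by library. The 18 barcodes with 5 or more UMIs stand above the 46 with 2 to 4.

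The label of the group therefore held by its marker lists for the 18 barcodes with 5 or more UMIs and not for most of the others. The threshold of 5 was set after these values were seen, so values by it are given as descriptions. Depth moved with the count: the median was 7742 UMIs per barcode with none (8524.5 in young libraries), 10717.5 with exactly 2, and 16800 with 5 or more. A high doublet score was given to 4 of the 18, to 14 of the other 46 members, and to 9.72 to 15.3% of other fibroblasts by library. Its part in the results was not tested beyond the counts without those barcodes. Dcn, a proteoglycan gene that the rule required, had a median of 58.2 per 10,000 in the 18, all from young libraries. In fibroblasts without Mki67 or Top2a it was 129 over all libraries and 115 in the young ones.

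The share of fibroblasts that met the rule was highest in young TN and lowest in aged 14D cold. In young TN, 23 of 7237 fibroblasts met it (0.318%, interval 0.202 to 0.476). In young 3D cold the count was 7 of 8734 (0.0801%, 0.0322 to 0.165), and in young 14D cold 19 of 9355 (0.203%, 0.122 to 0.317). In aged TN it was 7 of 6985 (0.1002%, 0.0403 to 0.206), in aged 3D cold 7 of 8666 (0.0808%, 0.0325 to 0.166), and in aged 14D cold 1 of 5998 (0.0167%, 0.000422 to 0.0929). The age groups overlapped, since young 3D cold lay below aged TN and aged 3D cold.

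Young libraries averaged 0.200% ± 0.119 (SD, n = 3) and aged libraries 0.0659% ± 0.0437, a difference of -0.134 percentage points. The exact two-sided permutation test over libraries gave p = 0.3, where 0.1 is the smallest p that 3 against 3 allows. The aged minus young difference was -0.218 at TN, 0.000629 at 3D cold and -0.186 at 14D cold. By temperature the means were 0.209% at TN, 0.0805% at 3D cold and 0.110% at 14D cold (n = 2 each, exact permutation test within age p = 0.5). Adjusted over the 4 share comparisons made, p was 0.4 for age and 0.5 for temperature.

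With every fibroblast thinned to 2000 UMIs, 7, 4 and 5 barcodes of young TN, 3D cold and 14D cold still had 2 or more UMIs, against 1, 2 and 0 in the aged libraries. The means were then 0.0653% ± 0.0275 and 0.0125% ± 0.0117 (n = 3), and the groups did not overlap (exact permutation p = 0.1, the smallest possible). At 3 or more UMIs without thinning, the young mean was 0.0877% ± 0.0364 and no aged fibroblast qualified (exact permutation p = 0.1). At 5 or more, the young libraries held 7, 4 and 7 barcodes, a mean of 0.0724% ± 0.0255. The aged count was 0 of 21649 fibroblasts, which allows a share of up to 0.0139%. A count by the phase lists alone, 15 or more of 2000 UMIs, gave 8, 4 and 7 young and 2, 1 and 0 aged barcodes. The 3 aged barcodes had 1, 0 and 0 UMIs of Mki67 and Top2a, in this order: an aged TN barcode held 23 S and 17 G2/M UMIs, another 0 and 44, and an aged 3D cold barcode 11 and 51.

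**Figure D2:**
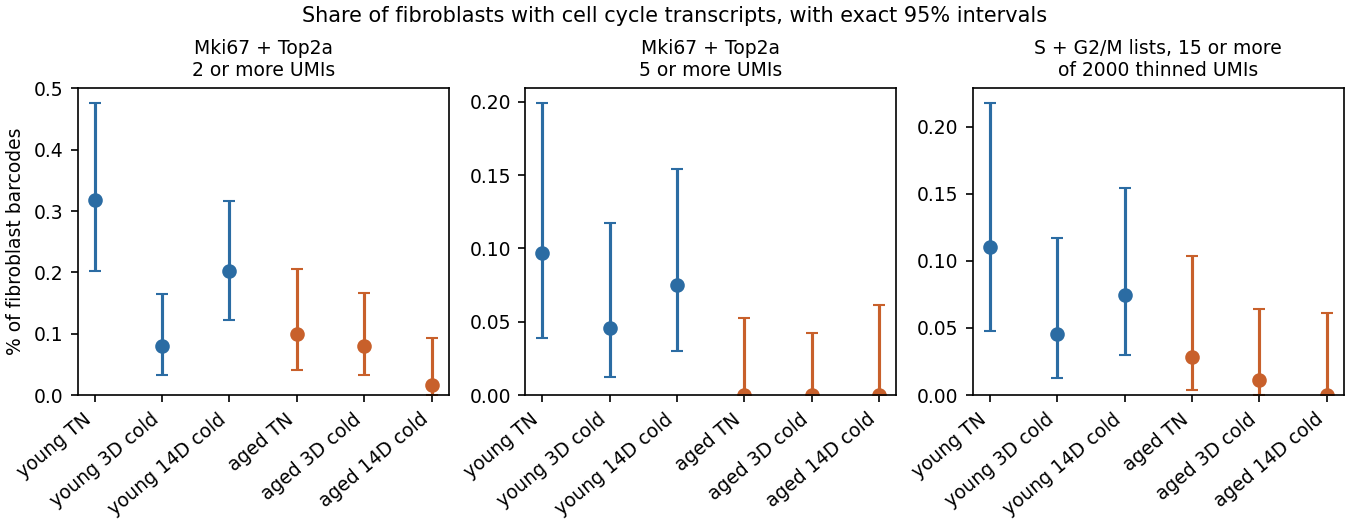
Share of fibroblasts in each library, in percent with exact 95% intervals, for 3 definitions: 2 or more Mki67 and Top2a UMIs, 5 or more, and 15 or more UMIs of the phase lists out of 2000. Aged libraries have 0 barcodes at 5 or more.

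Members were compared by fibroblast type with 4 genes of each side after thinning, which the rule did not use. A barcode took the side of which it held at least 2 UMIs and more than of the other sides together. On the Dpp4 side, 39 of 22745 fibroblasts were members, with library shares of 0.406, 0.0718 and 0.188% in young TN, 3D cold and 14D cold, and 0.178, 0.131 and 0.0308% in their aged counterparts. On the preadipocyte side, 12 of 16315 were members, with 0.0875, 0.0657 and 0.183% (young) and 0.0572, 0.0308 and 0% (aged). On the Cd142 side, 4 of 2012 were members, with 0.373, 0 and 0.282% (young) and 0.256, 0.313 and 0% (aged). Its mean was 0.204% ± 0.163 (n = 6), and it was not tested against the other sides. The Dpp4 share was higher than the preadipocyte share in 6 of 6 libraries, with means of 0.168% ± 0.131 and 0.0706% ± 0.0626 (n = 6). The difference was 0.0970 points (exact paired permutation test p = 0.031, the smallest that 6 pairs allow, and 0.125 adjusted over the 4 share comparisons). In young 3D cold and 14D cold the Dpp4 and preadipocyte sides differed by under 0.01 points. With members also taken after thinning the difference was 0.0253 points (4 of 6 libraries, exact permutation p = 0.4375). Without barcodes of high doublet score it was 0.0600 (exact permutation p = 0.25). Of the 18 barcodes with 5 or more UMIs, 9 were on the Dpp4 side, 3 on the preadipocyte side and 6 on none.

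Other cells of the same libraries gave a scale for these shares. Of 3840 endothelial barcodes, 18 had 2 or more UMIs (0.469%, 0.278 to 0.740) at a median of 3694 UMIs. Of 1891 mural barcodes, 2 had them (0.106%, 0.0128 to 0.382) at a median of 5196, of which 1 had 5 or more. Of 188 Ptprc-positive barcodes left after the CD45 depletion, 14 had them (7.45%, 4.13 to 12.2). Fibroblasts held a median of 7750 UMIs, so the depths behind these shares differ.

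The 18 barcodes with 5 or more UMIs varied in their balance of S and G2/M list UMIs, with the G2/M list the larger in each. The S list made up between 2.1% and 48.0% of a barcode's phase UMIs. A young 14D cold barcode held 8 S and 373 G2/M UMIs, and a young TN barcode 36 and 39. Ccnb1, the cyclin that peaks at mitotic entry, was concentrated in 3 barcodes with 28, 22 and 9 UMIs, one from each library, and the other 15 had 0 to 4. The same 3 held 44, 43 and 40 UMIs of Ube2c, the ubiquitin enzyme of mitotic exit, above the other 15 (at most 22), and had no Hist1h1b UMI. Hist1h1b, a linker histone made in S phase, reached 13 UMIs in a young 14D cold barcode, which also had the most Ccne2 (6), a cyclin of S phase entry. Summed by library, the S list was 15.3% of phase UMIs in young TN, 11.5% in 3D cold and 22.8% in 14D cold. The other fibroblasts of these libraries had 28.8, 28.7 and 27.4%.

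**Figure D3:**
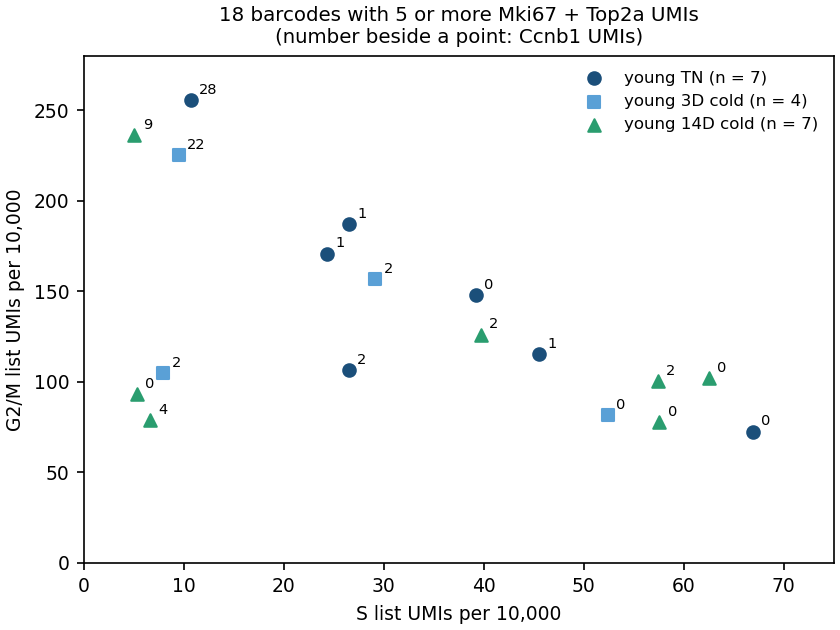
S list (horizontal) and G2/M list (vertical) UMIs per 10,000 in the 18 barcodes with 5 or more Mki67 and Top2a UMIs, coloured by library, with the Ccnb1 UMIs beside each point. The barcodes with 28, 22 and 9 Ccnb1 UMIs have 225 to 255 G2/M UMIs per 10,000 and at most 10.7 of the S list.

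Over all members, the S list made up 18.1, 14.0 and 25.1% of phase UMIs in young TN, 3D cold and 14D cold, against 37.2, 30.0 and 37.5% in aged mice. The means were 19.1% ± 5.61 and 34.9% ± 4.24 (n = 3) and the groups did not overlap (difference 15.8 points, exact permutation p = 0.1, the smallest possible, and 0.2 adjusted over the 4 comparisons). In other fibroblasts the value was 27.4 to 29.2% in every library. The aged libraries contributed no barcode with 3 or more Mki67 and Top2a UMIs to this comparison.

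Gene levels were compared on UMIs summed per library with edgeR's quasi-likelihood test, library as a block and Benjamini-Hochberg adjustment at 0.05, without the genes that chose the barcodes. For the 64 members against other fibroblasts, 12299 genes were tested, of which 328 (2.67%) rose and 207 (1.68%) fell. At 3 or more UMIs (22 young barcodes, 3 libraries), 517 of 13276 (3.89%) rose and 806 (6.07%) fell. At exactly 2 UMIs (42 barcodes, 6 libraries), 54 of 12220 (0.442%) rose and 71 (0.581%) fell. The sums of members hold few barcodes, 4 of them in young 3D cold at 3 or more. The median change of all genes at 3 or more UMIs was -0.35 on the log2 scale, and falls are read against that shift. With DESeq2 the median was -0.02 and the split 466 rises to 124 falls, with RLE scaling 590 to 509, and against the 10 other fibroblasts nearest in UMIs 340 to 101 of 5590 genes. Of the 517 rises, 438 were also called with DESeq2, and of the 806 falls, 124.

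The cell cycle lists rose in barcodes with 3 or more UMIs. Of the G2/M list 49 of 50 genes tested rose and none fell (median log2 change 6.90), Jpt1 being the exception. Of the spindle and kinetochore list 21 of 21 rose (8.01), and of the mitotic exit and cytokinesis list 9 of 11 (7.92). Genes nearly absent from other fibroblasts could pass the count filter through the member sums alone, where only a rise could be called. These counts are therefore descriptions of the lists. Cdk1 stood at 3.68, 4.82 and 2.67 UMIs per 10,000 in young TN, 3D cold and 14D cold, against 0.000756 in the mean of young other fibroblasts (log2 change 11.75 ± 0.39 SE). Its 3 values lay far above every library of other fibroblasts. Ccnb2 (cyclin B2) stood at 3.00, 5.12 and 1.86 against 0.00901 (8.05 ± 0.34), and Cenpf (a kinetochore protein) at 6.99, 6.29 and 2.80 against 0.00322 (10.23 ± 0.32). Cdc20, the activator of the anaphase-promoting complex, was highest in 3D cold, at 6.58 against 1.96 in TN and 1.43 in 14D cold. Its promoter was matched with 2 CCAAT and 1 CHR motif, and that of Ccnb1 with 2 CCAAT and no CHR motif.

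Genes of DNA replication rose by smaller amounts. Of the S list 30 of 42 tested rose and none fell (median 2.50), of the origin licensing and MCM list 10 of 17 (3.00), and of the replication fork and nucleotide list 17 of 19 (3.08). Mcm5 was at 0.368, 0.292 and 0.559 per 10,000 in young TN, 3D cold and 14D cold against 0.0191 (4.05 ± 0.67), from 6, 2 and 9 UMIs. Pcna, the sliding clamp, was at 1.103, 1.46 and 1.37 against 0.355 (1.48 ± 0.32), and 25.4% of other fibroblasts carried a UMI of it. Tk1 (thymidine kinase) was at 1.53, 1.17 and 1.30 against 0.00250 (8.69 ± 0.54). Pcna's 3 libraries lay close together, and those of Rrm2, a subunit of ribonucleotide reductase, spread from 0.292 in 3D cold to 1.30 in 14D cold. Orc1, a subunit of the origin recognition complex, had no UMI in these barcodes.

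Chromatin genes rose with them, 8 of 11 of the histone list (median 3.68) and 10 of 10 of the condensin and HMG list (3.87). Hmgb2, a chromatin protein of dividing cells, stood at 9.74, 15.4 and 6.03 against 0.540 (3.74 ± 0.24), and 20 of the 22 barcodes had it. H2afz, the variant histone H2A.Z, stood at 23.0, 36.3 and 18.9 against 2.75 (2.75 ± 0.23). Both were highest in 3D cold. Of the E2F, MYBL2 and FOXM1 regulators 8 of 11 rose (2.03), among them Foxm1 (6.38 ± 0.60) and Mybl2 (5.07 ± 1.19). E2f1, at 0.306, 0 and 0.683 against 0.160, was not called (0.80 ± 0.51, edgeR adjusted p = 0.442).

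**Figure D4:**
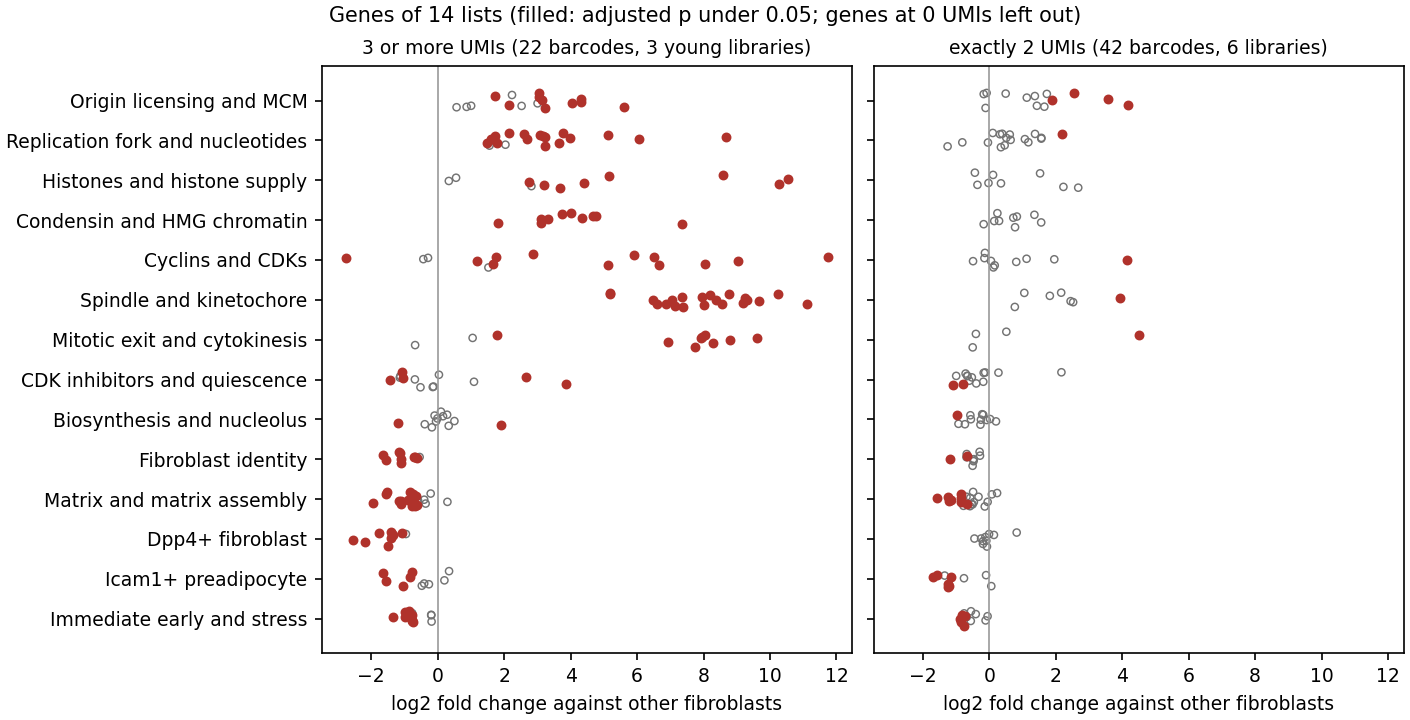
Log2 fold change against other fibroblasts of each gene of 14 lists, for barcodes with 3 or more Mki67 and Top2a UMIs (left) and with exactly 2 (right). Filled points passed the edgeR test; genes without a UMI in the group are left out. At 3 or more UMIs, 49 of 50 G2/M genes tested passed upward, and at exactly 2, 3 of 30 tested. Genes nearly absent from other fibroblasts could be called only upward.

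Of the cyclins and CDKs 11 of 15 rose. Ccnd1, cyclin D1 of the G1 phase, fell in edgeR, with 3, 0 and 0 UMIs and levels of 0.184, 0 and 0 against 0.343 (edgeR adjusted p = 0.00188, DESeq2 adjusted p = 0.110). Of the CDK inhibitors and quiescence genes 2 of 14 rose and 3 fell. The risers were Cdkn2c (p18) at 2.94, 3.66 and 0.994 against 0.117 (3.86 ± 0.31) and Cdkn2d (p19) at 2.63, 1.17 and 1.93 against 0.235 (2.67 ± 0.30). Both encode inhibitors of CDK4 and CDK6. Cdkn1a (p21) stood at 4.96, 5.85 and 7.33 against 4.86 (-0.13 ± 0.23, edgeR adjusted p = 0.819). Btg2, an antiproliferative gene, fell, at 2.21, 2.34 and 5.09 against 6.28 (-1.44 ± 0.25), and also passed with DESeq2 (adjusted p = 0.0252) and against the nearest fibroblasts in edgeR (adjusted p = 0.0412). Btg1 and Gas1 fell in edgeR alone (-1.04 and -1.07). Of biosynthesis genes, Ran, the GTPase of nuclear transport and the spindle, rose (1.91 ± 0.23) and Myc fell (-1.18 ± 0.26, DESeq2 adjusted p = 0.0691), and the other 10 were not called.

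Genes of the fibroblast state fell in edgeR in barcodes with 3 or more UMIs, and fewer of them with DESeq2. Of the fibroblast identity list 9 of 10 fell in edgeR (median -1.12) and 4 with DESeq2, Pdgfra not being called in either. Gsn, the actin-severing gelsolin, stood at 162, 242 and 159 per 10,000 against 245, 381 and 275 in the same libraries' other fibroblasts (-1.12 ± 0.19, DESeq2 adjusted p = 0.00755). The 3 values lay below those of their own libraries. Clec3b (tetranectin) stood at 17.5, 4.82 and 17.0 against 30.4, 24.5 and 28.2 (-1.65 ± 0.23). Of the matrix list 17 of 22 fell in edgeR (median -0.77) and 2 with DESeq2. Col3a1 stood at 162, 68.7 and 120 against 153, 91.4 and 138, and was not called with DESeq2 (adjusted p = 0.602). Lox, which crosslinks collagen, stood at 0.980, 0.877 and 1.43 against 2.48, 3.00 and 2.00 and was lower under both (-1.52 ± 0.28, DESeq2 adjusted p = 0.0254).

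Among adipogenic regulators, 4 of 13 fell. Cebpd, an early factor of adipocyte differentiation, stood at 4.53, 2.19 and 5.34 against 12.3, 13.6 and 12.02 (-2.08 ± 0.24, DESeq2 adjusted p = 4.34e-05). Cebpb, its partner, stood at 4.96, 5.70 and 7.70 against 11.2, 11.8 and 10.8 (-1.33 ± 0.23, DESeq2 adjusted p = 0.00812). Both groups of 3 values were apart, and both genes also passed against the nearest fibroblasts. Klf4 and Ebf2 fell in edgeR as well. Of the thermogenic list none of 4 tested was called, 2 of them were at 0 UMIs, and Ucp1, Cidea and Dio2, also at 0 UMIs, were not tested. Of the mitogen and receptor list 4 of 14 fell, of which Egfr (-1.35 ± 0.25) also passed with DESeq2 (adjusted p = 0.0162). Of 12 immediate early and stress genes 8 fell in edgeR and 0 with DESeq2. Of 8 genes the study names, which it chose on these samples, 6 fell, and Itm2a (-1.65 ± 0.29) also passed with DESeq2 (adjusted p = 0.00743).

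**Figure D5:**
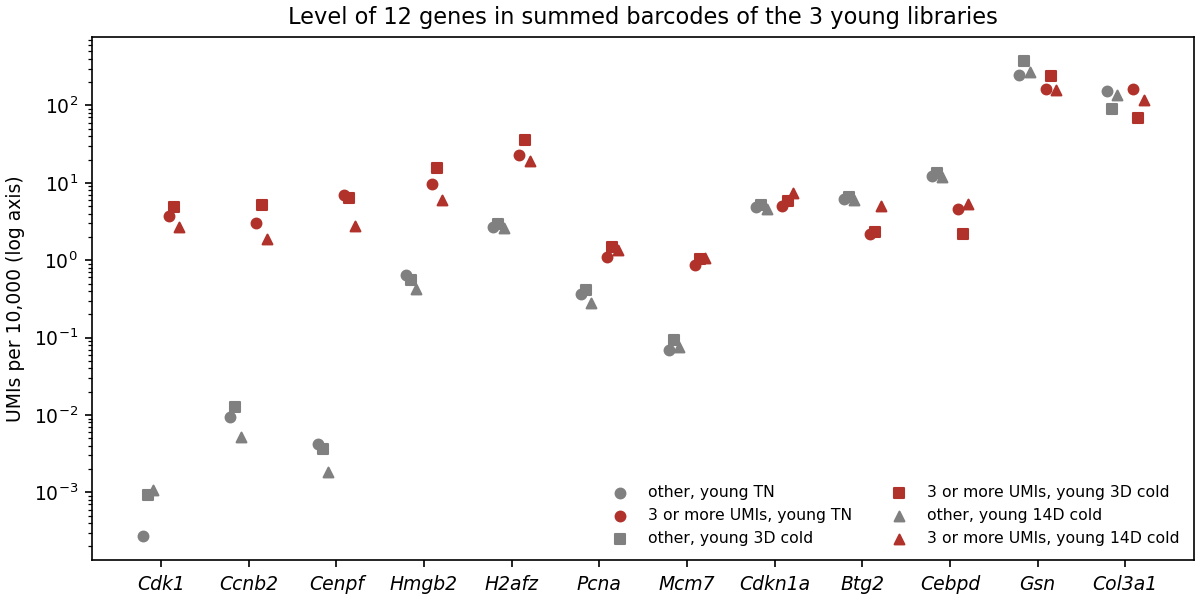
UMIs per 10,000 (log axis) of 12 genes in the young libraries, for barcodes with 3 or more Mki67 and Top2a UMIs and for other fibroblasts. Cdk1 is near 3 in the first and below 0.002 in the second; Cebpd and Gsn lie below their own library's other fibroblasts in all 3.

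The type genes differed by library. The Dpp4+ list fell in 9 of 10 genes in edgeR (median -1.42), 2 with DESeq2 and 0 against the nearest fibroblasts. Pi16, a marker of these cells, stood at 10.2 in TN and 18.5 in 14D cold, but at 0.146 in 3D cold (1 UMI), where other fibroblasts stood at 22.7. Fn1 (fibronectin) had 437, 0 and 304 UMIs in TN, 3D cold and 14D cold. The 4 young 3D cold barcodes held 60, 52, 75 and 92 Fabp4 UMIs, the fatty acid binding protein of adipogenic cells, at 40.8 per 10,000 against 10.2 in that library's other fibroblasts. In TN and 14D cold Fabp4 stood at 5.39 and 7.27. Summed, the 3D cold barcodes thus had little of the Dpp4+ genes and more Fabp4 and Lpl (41.5 against 19.3) than the others, a description of 4 barcodes. Among them, 1 held only 5 Lpl UMIs of 8971. A young 14D cold barcode had a like profile, with 42 Fabp4 and 97 Lpl UMIs of 11361 and no Dpp4 or Pi16 UMI.

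Markers of other cell types were low with named exceptions. Pecam1, Cdh5 and Ptprc were set to 0 by the rule. The endothelial list had summed levels of 0.368, 3.95 and 0.435 per 10,000 in the 3 young libraries at 3 or more UMIs, against 0.300 to 0.486 in their other fibroblasts, and Cldn5, Flt1 and Kdr were at 0. Plvap, at 26 UMIs in 3D cold, was the 1 endothelial gene of 7 called (edgeR adjusted p = 0.0495). The mural list had 13.1, 1.17 and 12.4 against 1.71 to 2.55, with 3 of 9 genes called. Acta2 (smooth muscle actin) was carried by 2 barcodes of high doublet score, with 109 and 95 of its UMIs. The macrophage and lymphocyte lists were at or below 0.124. Car3, an adipocyte enzyme, was the 1 of 4 adipocyte genes called, with 34, 1 and 28 UMIs in young 3D cold barcodes and 12 in a 14D cold one; Adipoq and Plin1 were at 0. Of the mesothelial list Lrrn4 was called, and of the red blood cell list 3 of 4 genes fell. Schwann genes were not called, and the epithelial list had no UMI. The part of these markers in the results was not tested.

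In the 42 barcodes with exactly 2 UMIs, 0.442% of all genes tested rose. A larger share of the S and G2/M lists rose, though most of their genes were not called. Of the S list 5 of 36 did: Mcm5 (3.58 ± 0.55), Mcm2 (2.55 ± 0.68), Mcm6 (1.89 ± 0.45), Uhrf1 (3.74 ± 0.71), which maintains DNA methylation at the fork, and Gmnn (4.17 ± 0.71), the brake on relicensing. Mcm5 rested on 12 UMIs in 5 of the 42 barcodes. Of the G2/M list 3 of 30 rose, Ube2c, Ccnb2 and Cdca8, and the Ube2c UMIs came from 1 barcode. Hmgb2 (0.24 ± 0.31) and H2afz (-0.03 ± 0.24) were not called. The Icam1+ preadipocyte list fell in 6 of 10 genes, among them Cxcl14 (-1.70 ± 0.26) and Lpl (-1.23 ± 0.22), and the Dpp4+ list in 0 of 10. Summed, the preadipocyte list was above other fibroblasts in aged TN (205 against 89.7 per 10,000) and young 14D cold (62.7 against 60.5). It was below them in the remaining libraries. Of the matrix list 8 of 22 fell, with Col4a1 at -1.58 ± 0.23, and of the fibroblast identity list 2 of 10, Gsn and Col3a1. The median change of all genes was -0.29. Myh11, Acta2, Tagln and Mcam of the mural list rose. That list stood at 22.8 per 10,000 in young TN and 21.7 in aged 3D cold. In young 3D cold, young 14D cold, aged TN and aged 14D cold it stood at 0.465, 0.211, 0.394 and 0. Their other fibroblasts stood at 1.71 to 2.58. Also, 3 of 4 red blood cell genes rose, and their list stood at 481 per 10,000 in aged 3D cold and at most 0.0553 in the other libraries.

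For the 64 members together, 26 of 30 G2/M genes (median 3.75), 25 of 36 S genes (1.61) and 9 of 9 spindle genes rose. The genes tested were those that passed the count filter, of 51, 43 and 22 on the lists. Of genes that changed in the same direction in every library, the largest rises were Tmpo of the G2/M list (1.98 ± 0.23), which encodes a lamin-binding nuclear protein, Tfdp2, an E2F partner (1.36 ± 0.35), Fam111a (1.28 ± 0.27) and Usp1 of the S list (1.22 ± 0.28). In aged 14D cold, with a single member, Tmpo, Tfdp2 and Usp1 rested on 1 UMI each and Fam111a on 2. Tfdp2 stood at 0.145 against 0.141 in young TN, and 16 of its UMIs lay in aged 3D cold (2.24 against 0.184). Tmpo stood at 3.28, 3.41 and 2.78 in young mice, and at 0.788, 0.979 and 1.11 in aged mice, against 0.383 to 0.730 in other fibroblasts. The largest falls were Nmb (-1.90 ± 0.33), which encodes the peptide neuromedin B, Cxcl14 (-1.57 ± 0.25) and Gpnmb (-1.55 ± 0.29). Nmb stood at 0.349, 0.0898 and 0.470 in young mice and had no UMI in the 3 aged libraries, against 0.744 to 1.42 in other fibroblasts.

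Age was tested within the members with temperature as a term. Of 1549 genes 36 (2.32%) were called, 9 higher and 27 lower in aged mice. The 27 included 14 of 19 G2/M genes tested. Genes could pass the count filter through the young sums alone, where only a fall in aged members could be called. Of the 19, 9 had no UMI in the aged members. Cdk1 stood at 1.89, 3.05 and 1.68 per 10,000 in young TN, 3D cold and 14D cold and had no UMI in the aged members. Prc1, which bundles the spindle midzone, had 213 UMIs in young and 0 in aged members, at least 13.1-fold lower against 3 UMIs over the aged group, and Cenpf at least 12.5-fold. Stmn1, which destabilises microtubules, stood at 9.13, 12.5 and 7.20 against 0. All aged members had exactly 2 Mki67 and Top2a UMIs, and 22 of the 49 young members had more. Among barcodes with exactly 2 UMIs, 0 of 891 genes were called by edgeR (64 at an unadjusted p under 0.05). Without the young TN library 0 of 1295 were called in all members (142 at an unadjusted p under 0.05).

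Among the 9 higher genes, Igfbp5, a binding protein of insulin-like growth factors, stood at 14.6, 9.34 and 18.6 in young TN, 3D cold and 14D cold and at 42.1, 33.8 and 90.6 in aged mice (1.87 ± 0.26, edgeR adjusted p = 0.0182). Other fibroblasts ranged from 16.1 to 25.8 for young and 17.5 to 29.0 for aged mice. The 2 age groups of members did not overlap. Il33, an alarmin cytokine, stood at 0.174, 0 and 0.235 in young mice, against 1.38, 1.12 and 2.21 in aged mice, from 7, 8 and 2 aged UMIs. Has1, a hyaluronan synthase, stood at 3.89, 4.13 and 6.61 against 11.8, 15.4 and 16.6. Dstyk, Krtdap, Dmkn, Itgb7, Sbsn and Nr4a1 were also higher. The summed Dpp4+ fibroblast list stood at 53.8, 21.3 and 47.0 in young members and at 59.1, 51.3 and 132 in aged members. Other fibroblasts stood at 58.1, 55.4 and 66.8 (young) and at 35.1, 44.5 and 52.7 (aged). The part of fibroblast type in these calls was not tested. The aged 14D cold values of members come from a single barcode.

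Across temperatures 0 of 1963 genes (0.0%) were called within the members by edgeR with age as a term (57 at an unadjusted p under 0.05, and 0 adjusted calls with DESeq2). The age effect differed between members and other fibroblasts for 96 of 12299 genes (0.781%, edgeR interaction test), 18 higher and 78 lower in aged members than the age effect of other fibroblasts. Here too, no aged member had 3 or more Mki67 and Top2a UMIs. The G2/M list held 18 of the 78 lower genes, of 30 tested, and the condensin and HMG list 7 of 9. The higher ones included 4 of 4 red blood cell genes. Their summed level in members was 481 per 10,000 in aged 3D cold and 0 in aged TN and 14D cold, against 0.842 to 2.06 in the other fibroblasts of the aged libraries, and its part in the result was not tested. At exactly 2 UMIs the interaction called 19 genes, 11 higher and 8 lower.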

How the data were processed

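Single-cell RNA was measured in 6 libraries, 1 for each age and temperature. The deposited gene-by-barcode counts were made by the authors with Cell Ranger on mm10, and are UMI counts without normalization. The study's later Seurat objects were not used here. Barcodes were chosen by the rule in the report, members and gene lists with earlier results of these data known. Levels are UMIs per 10,000 of the summed barcodes. Shares were compared by exact permutation tests over libraries. Genes were compared with edgeR 4.0.16 (TMM scaling, filterByExpr, quasi-likelihood test) on sums per library, with DESeq2 1.42.0 as the alternative, in R 4.3.3. P-values measure the spread between these libraries, whose number of mice is not stated. The script was tested on simulated data. Thinning to 2000 UMIs, thresholds of 1 and 3 UMIs, other depth and Dcn limits, no low-count filter, RLE scaling, the 10 nearest fibroblasts in UMIs and each library left out were planned; the thresholds of 5 and of exactly 2 UMIs and the phase-list count of 15 were chosen after seeing the data, as were the DESeq2, RLE, nearest-fibroblast and left-out-library fits at 3 or more UMIs. Doublets were scored on 30 components and 60 neighbours against artificial pairs, with the top share set at 0.8% per 1000 barcodes, and were kept in the main counts. Genes outside the lists were named by rule: the 10 largest rises and falls that passed, in the same direction in every library, with at least 50 CPM in the higher group and not in the rule. Library totals were 52068837 to 88508349 UMIs, and precision is limited by the number of members per library, 1 to 23. The limit for a count of 0 is 3 counts.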

Additional observations from a re-analysis of the deposited data

Results flagged for a closer look

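The age effect differed between members and other fibroblasts for 96 genes, by the interaction term itself. Of these, 18 had a higher and 78 a lower age effect in members than in other fibroblasts. Among the higher genes named by the rule, the difference was 3.43 ± 0.66 on the log2 scale for Il33, 3.22 ± 0.75 for Polr2l, 3.14 ± 0.73 for Dstyk and 1.88 ± 0.39 for Sbsn. Spp1, which encodes the matrix protein osteopontin, was also named and had 46 UMIs in the members of aged TN and 0 in those of every other library, so no fold is given. The lower genes named were Stmn1, Prc1, Birc5, Smc4, Ccnb2, Mgp, Cdc20, Spc24, Anln and Car3, each with 0 UMIs in the members of all 3 aged libraries. Car3 also had 0 UMIs in the members of young TN, and Mgp in those of young 3D cold. Aged members held 131376 UMIs in all, against 711018 in young members, and none had 3 or more Mki67 and Top2a UMIs. Polr2l rested on aged 14D cold, where its 11 UMIs came from the library's single member, while aged TN had 1 UMI and aged 3D cold 2. Sbsn stood at 31.0 per 10,000 in that barcode and at 6.50 and 5.87 in the other aged libraries.

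Of 55 barcodes with 5 or more Mki67 and Top2a UMIs in all libraries, 37 failed another condition of the rule and were in no comparison. A UMI of Pecam1, Cdh5 or Ptprc left out 29 of them, low Dcn 5, and depth or mitochondrial share 3. They lay in every library: 4, 9 and 11 in young TN, 3D cold and 14D cold, and 4, 4 and 5 in aged TN, 3D cold and 14D cold.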

How the results depend on the processing

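The share difference by age was negative under the other definitions except by the G2/M list alone at 5 or more of 2000 UMIs, where aged libraries were higher by 2.53 points (exact permutation p = 0.2), a cause not tested. Leaving out one library gave -0.195 to -0.0757 points. The Dpp4 side difference missed the threshold with a side minimum of 1 (0.0956) or 3 UMIs (0.0887), with thinned members (0.0253), without high doublet scores (0.0600), at 5 or more UMIs (0.0166) and with 5 libraries (0.0527 to 0.115, where 0.0625 is the smallest p). Calls for all members (535) were 169 with DESeq2, 1323 at 3 or more UMIs, 27 against the nearest fibroblasts, 273 thinned, 125 at exactly 2 UMIs and 181 to 678 with a library left out, the fewest without young TN. At 3 or more UMIs (1323) they were 590 with DESeq2, 441 against the nearest and 513 to 724 with a library left out. For age (36) there were 88 without a count filter, 0 at exactly 2 UMIs and 0 to 119 with a library left out; for temperature (0), 16 and 14 to 64; for the interaction (96), 22 with DESeq2, 18 against the nearest, 11 thinned, 19 at exactly 2 and 54 to 128. Myh11 turned to -0.42 against the nearest fibroblasts and Vdac1 to -0.22 after thinning. Fewer genes were tested against the nearest fibroblasts; other causes were not tested. Age, temperature and interaction at 3 or more UMIs were not run, since no aged member has them. No paired analysis by replicate number was possible because the labels give none; age fits carry temperature as a term, and comparisons with other fibroblasts the library as a block. RLE kept every total of calls within 1.5 times. The split of rises to falls for all members was 328 to 207, 450 to 62 with RLE and 146 to 23 with DESeq2. The number of members, from 1 to 23 per library, limits each comparison.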
